A study of Mus musculus with 24 samples.

Results

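The uterus of sham-operated mice on day 3.5 of pregnancy was compared between 3 months and 1 month after surgery. The libraries were chosen by their labels, as every library of sham uterus in the series: 4 taken 3 months after surgery and 4 taken 1 month after it, 8 of 24 libraries in all. The study is a mouse model of endometriosis, in which tissue of the uterine lining grows outside the uterus, and sham uterus is its operated control. Both sham groups carried Rosa26mTmG/+, a fluorescent reporter allele that changes colour only where Cre acts, on a mixed C57BL/6 and SV129 background. They were operated on at 8 weeks of age, mated 1 or 3 months later, and labelled fertile at both times. The mice at 3 months were older, so age and time since surgery cannot be told apart. For comparison, eutopic uterus, the uterus of mice with endometriosis, has 4 libraries at 3 months, labelled subfertile, and 4 at 1 month, labelled fertile. It has the same reporter genotype and background in the labels, whereas the series text gives Pgrcre/+Rosa26mTmG/+ for mice with endometriosis, a genotype in which Cre follows the progesterone receptor gene. The series text gives 4 mice a group without tying a library to an animal, so p-values measure the spread between these samples only.

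Around this time of pregnancy the uterus becomes ready for the embryo to attach. Estrogen drives division of the lining epithelium and induces secreted proteins such as lactoferrin, and progesterone, acting through its receptor Pgr, then holds that programme down through epithelial Ihh and stromal Hand2. A later pulse of estrogen induces leukaemia inhibitory factor, Lif, in glands that need the transcription factor Foxa2.

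Read counts per gene summed to between 4.69e+07 and 5.94e+07 in the 4 libraries at 3 months and between 5.36e+07 and 5.89e+07 in the 4 at 1 month. Levels below are CPM, read counts scaled to library size. The collection text speaks of endometrium and the tissue label of uterus; smooth muscle genes, which mark the muscle wall, summed to 13300 to 20900 CPM at 3 months and 16900 to 21600 CPM at 1 month, and stromal and epithelial genes were present in every library. In bulk tissue, fewer cells of a type and less RNA per cell cannot be told apart. Counts on ribosomal RNA genes made up 0.368%, 0.564%, 0.361% and 0.320% of the libraries at 3 months and 1.05%, 0.604%, 0.589% and 0.744% of those at 1 month. The means were 0.403% ± 0.109 and 0.748% ± 0.216 (SD, n = 4 each, exact permutation test, two-sided p = 0.0286, the smallest that 4 against 4 allows). Rn18s-rs5, an 18S ribosomal RNA gene taken up below, is counted in this share, with means of 3010 CPM at 3 months and 6760 CPM at 1 month. Its result below is therefore not a separate observation. Whether this share had a part in any other result below was not tested.

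The 4 libraries at 3 months did not form one group. Library 4 stood apart from all others: across genes, which are not independent replicates, its log2 CPM correlated with the other sham libraries at 0.954 to 0.967. Library 1 correlated with the 1-month libraries at 0.979 to 0.988 and with libraries 2 and 3 of its own group at 0.979, whereas libraries 2 and 3 correlated with each other at 0.990. On the first principal component, with 37.9% of the variance, library 4 lay at 103.7 and library 1 at −31.0, close to 1-month libraries 1, 3 and 4 at −32.0, −32.1 and −30.4. The 1-month libraries did not all lie together either. At 1 month library 2 lay at 6.9, near 3-month libraries 2 and 3 at 5.9 and 8.9 on this component. Library 4 held the highest or the lowest of the 8 values in 46.0% of 21208 genes, against 12.2% to 25.8% for the other 7 libraries. Values without 3-month library 4 are therefore given beside many of the results below.

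**Figure D1:**
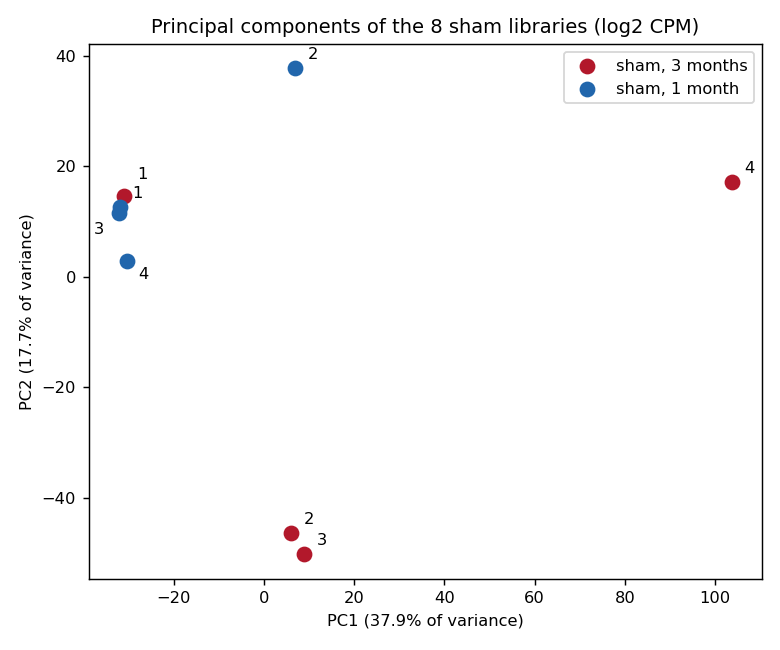
Position of each sham library on the first 2 principal components of log2 CPM, with 3-month libraries in red, 1-month libraries in blue and digits for replicate numbers. Library 4 at 3 months lies alone at 103.7 on the first axis, and libraries 2 and 3 lie together at −46.4 and −50.3 on the second. Library 1 at 3 months lies among 1-month libraries 1, 3 and 4, and 1-month library 2 lies apart from these, at 37.7 on the second axis.

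No gene passed the test at an adjusted p under 0.05. edgeR's quasi-likelihood test with Benjamini-Hochberg adjustment called 0 of 21208 genes (0.0%), with a smallest adjusted p of 0.192. At an unadjusted p under 0.05 stood 2274 genes (10.7%), of which 1330 (6.27%) were higher at 3 months and 944 (4.45%) lower. Without 3-month library 4 edgeR also called 0 genes, where 1516 of 21542 genes (7.04%; 4.03% higher, 3.00% lower) stood at that unadjusted p and the smallest adjusted p was 0.377. Other tools gave other counts: DESeq2 called 156 of 20857 genes (0.748%) and limma voom with sample weights, which gave 3-month libraries 1 and 4 the lowest weights of the 8 at 0.393 and 0.247, called 1036 of 21208 (4.88%). The count also rested on 3-month library 1, since without it edgeR called 430 of 21563 genes (1.99%), 234 higher and 196 lower. DESeq2 and voom, both with and without library 4, shared 28 genes, 11 higher and 17 lower.

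The genes named first are the 10 of smallest p in each direction among those whose groups did not overlap, and none of the 20 passed edgeR's test. All 20 had an adjusted p under 0.05 in DESeq2 and in voom, 18 had one in edgeR without 3-month library 1, and 14 were among the 28 genes shared by DESeq2 and voom with and without library 4. These genes were picked by p in the same libraries, so their passing in other tools is not independent evidence. Because the rule asks for groups that do not overlap, the absence of overlap in them is no result either. Over all genes 3.37% had groups that did not overlap, 1.61% higher and 1.76% lower.

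Slc27a2, a fatty acid transporter and very long chain acyl-CoA synthetase, was at 4.25, 10.3, 11.6 and 6.69 CPM at 3 months, against 3.16, 1.98, 2.83 and 2.88 CPM at 1 month. On the log2 scale, with the standard error (SE), it was 1.60 ± 0.30 higher with library 4 (edgeR adjusted p = 0.192) and 1.69 higher without it. Library 1 was nearest to the 1-month values and library 3 highest. Bcat1, which transfers the amino group of branched-chain amino acids, had 265, 417, 513 and 646 CPM at 3 months and 139, 260, 127 and 179 CPM at 1 month (log2 fold change 1.39 ± 0.29, edgeR adjusted p = 0.231; 1.19 without library 4). Here library 1 at 3 months and library 2 at 1 month nearly met. Tmem45b, a membrane protein gene, had 7.05, 14.4, 21.8 and 67.8 CPM at 3 months and 4.85 to 6.29 CPM at 1 month, with a log2 fold change of 2.31 ± 0.51 that was 1.38 without library 4. H2bc8, a histone H2B gene, was at 1.58, 1.53, 1.52 and 2.28 CPM at 3 months and 0.648 to 0.816 CPM at 1 month (log2 fold change 1.24 ± 0.21, edgeR adjusted p = 0.192; 1.08 without library 4), and 3 of the 4 later libraries lay within a narrow range. Histone genes of this family are close copies of each other, so their counts are uncertain. The other genes on this side were Grip1, a scaffold protein of glutamate receptors, Myo3b, an unconventional myosin, Efcab11, Mad2l1, a spindle checkpoint protein, Arhgef39 and Pcna, the sliding clamp of DNA replication, with log2 fold changes of 0.51 to 1.26 and library 4 highest in each.

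On the lower side, Vcam1, an adhesion molecule that binds white blood cells, was at 18.3, 10.8, 11.3 and 11 CPM at 3 months and at 20.5, 22.7, 24.4 and 23.7 CPM at 1 month (log2 fold change −0.83 ± 0.15, edgeR adjusted p = 0.192; −0.76 without library 4). Libraries 2, 3 and 4 agreed closely and library 1 lay near the 1-month values. Sele, the selectin that endothelium shows when activated, was at 0.276 to 0.945 CPM at 3 months and 1.55 to 3.69 CPM at 1 month (log2 fold change −1.93 ± 0.42; −1.67 without library 4). Nt5e, the ecto-nucleotidase CD73, was at 34, 27.8, 23.6 and 36.8 CPM at 3 months, against 58.0, 61.0, 52.6 and 43.6 CPM at 1 month, and here library 4 was the highest of its group (log2 fold change −0.82 ± 0.17, and −0.91 without it). Serpinb9, an inhibitor of granzyme B, differed least among the 10, with 25.1 to 30.3 CPM at 3 months and 35.9 to 38.1 CPM at 1 month. Egr2, a transcription factor that takes part in stromal responses, was at 3.07, 1.93, 1.77 and 1.91 CPM at 3 months and 5.28, 3.89, 4.90 and 3.99 CPM at 1 month (log2 fold change −1.06 ± 0.20; −0.99 without library 4). Sox2ot, a long noncoding RNA that overlaps the Sox2 gene, had the largest log2 fold change of the 10, −3.47 ± 0.68, with 0.0368 to 0.799 CPM at 3 months and 1.65 to 8.99 CPM at 1 month. The remaining genes of this side were Nav3, Wfikkn2, a secreted inhibitor of growth factors of the TGF-beta family, Coch, an extracellular matrix protein, and Hpx, the plasma haem carrier hemopexin, with log2 fold changes of −2.31 to −0.99.

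**Figure D2:**
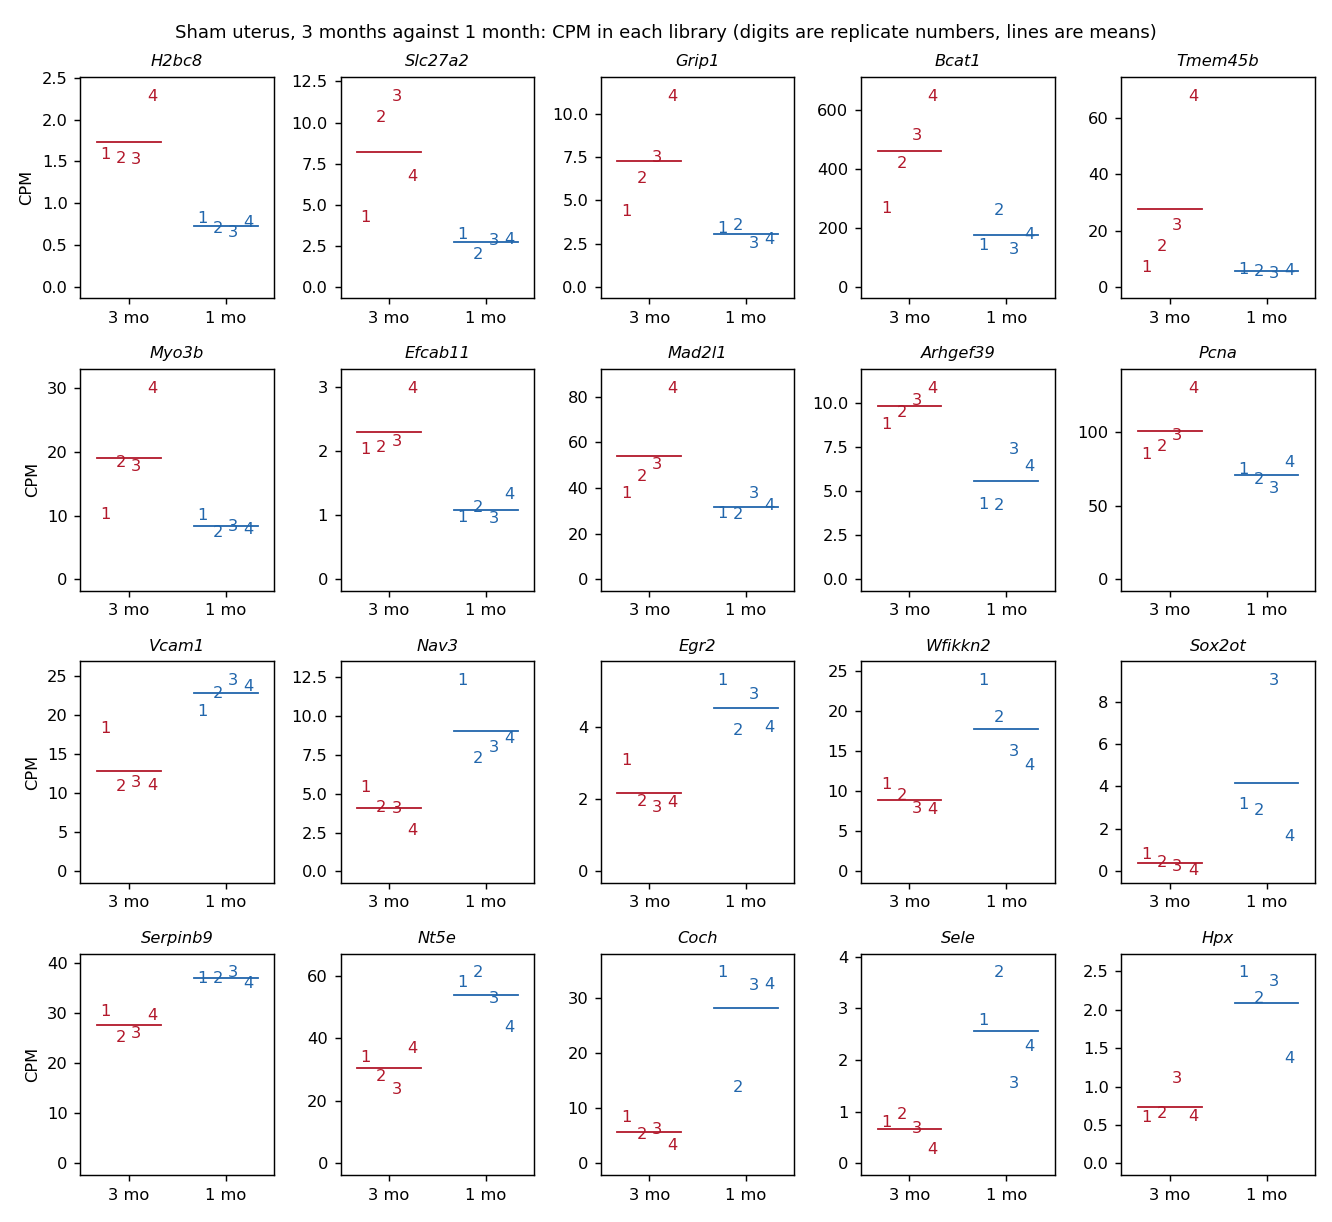
CPM of the 20 genes of smallest p in each sham library, 3 months at the left and 1 month at the right of each panel, with digits for replicate numbers and lines at group means. Bcat1 spans 265 to 646 CPM at 3 months and 127 to 260 CPM at 1 month, and in 9 of the 10 upper panels library 4 is the highest point.

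Without library 4 the same rule named 2 genes that the full comparison did not. Gpr82, an orphan receptor gene, was at 2.43, 3.32, 4.53 and 0.147 CPM at 3 months and 1.06 to 1.42 CPM at 1 month, so library 4 alone was below the 1-month range. Malat1, an abundant nuclear noncoding RNA, was at 1880, 2180, 2370 and 1550 CPM at 3 months and 1640, 1340, 1490 and 1430 CPM at 1 month. Their log2 fold changes without library 4 were 1.47 and 0.55 (edgeR adjusted p = 0.377 and 0.463), and neither passed the test.

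The panel of hormone and implantation regulators differed among the 3-month libraries as well as between the times, and none of its 7 genes passed the test. Ltf, the estrogen-induced secretory protein lactoferrin, was at 26.7, 204, 277 and 255 CPM at 3 months and at 32.5, 19, 13.1 and 30.8 CPM at 1 month. Thus libraries 2, 3 and 4 were far above every 1-month library, and library 1 lay within the 1-month range. The log2 fold change of 3.00 ± 0.73 did not pass (edgeR adjusted p = 0.273, DESeq2 0.0151, voom 0.0250, edgeR without library 1 0.0305). Without library 4 it was 2.84 (edgeR adjusted p = 0.48, DESeq2 0.111, voom 0.0308). Lif, the cytokine on which implantation depends in mice, was at 8.48, 13.3, 14.4 and 5.79 CPM at 3 months and 14.8, 19.6, 17.9 and 26.0 CPM at 1 month, without overlap (log2 fold change −0.90 ± 0.45, edgeR adjusted p = 0.496; −0.69 without library 4). Hand2, the stromal factor that carries the progesterone signal, was also without overlap, at 88.2, 72.9, 64.5 and 58.9 CPM at 3 months and 121, 90.2, 122 and 89.0 CPM at 1 month. Its log2 fold change was −0.57 ± 0.14 (edgeR adjusted p = 0.268, DESeq2 0.0266, voom 0.0234). Without library 4 it was −0.48 (edgeR adjusted p = 0.494, DESeq2 0.172, voom 0.0317). The receptors had overlapping levels. Pgr was at 272, 189, 215 and 537 CPM at 3 months and 198 to 308 CPM at 1 month, and Esr1, the estrogen receptor, at 558, 453, 468 and 769 CPM at 3 months and 455 to 628 CPM at 1 month; in both, library 4 was above every other library. The direction of Pgr turned without library 4, with log2 fold changes of 0.30 ± 0.29 with it and −0.12 without it. Ihh, the epithelial signal induced by progesterone, was at 44.5, 82.9, 67.7 and 17.8 CPM at 3 months and 38.0 to 48.8 CPM at 1 month, with library 4 below and libraries 2 and 3 above the 1-month range (log2 fold change 0.30 ± 0.30; 0.59 without library 4). Foxa2 was at 15.8, 24.7, 22.0 and 11.6 CPM at 3 months and 16.3 to 23.2 CPM at 1 month.

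**Figure D3:**
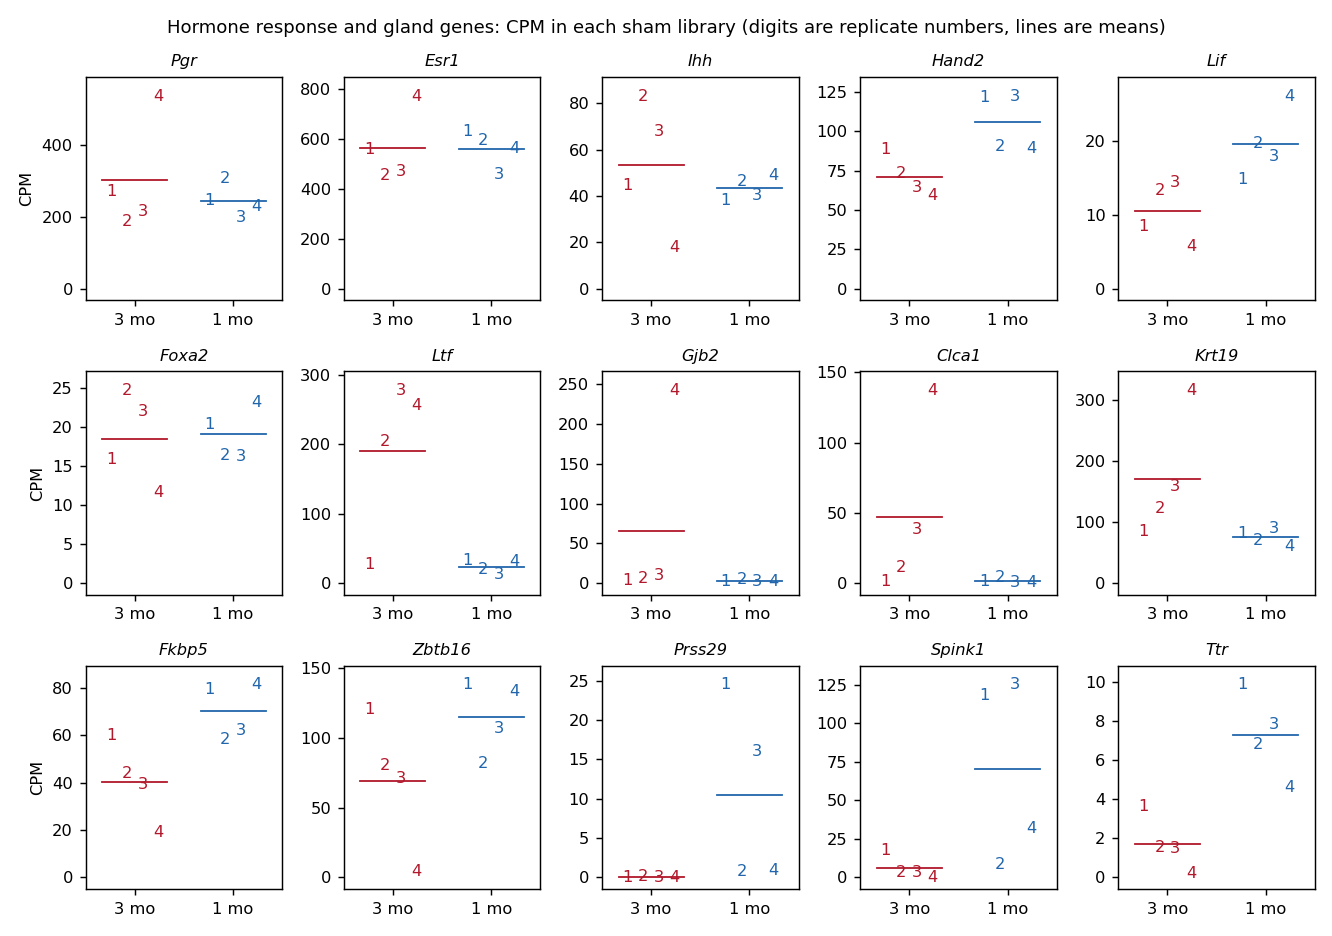
CPM of 15 hormone response, epithelial and gland genes in each sham library, 3 months at the left and 1 month at the right of each panel, with digits for replicate numbers and lines at group means. Ltf is at 204 to 277 CPM in libraries 2, 3 and 4 at 3 months and at 26.7 CPM in library 1, while Gjb2 is high in library 4 alone, at 242 CPM.

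Genes induced by estrogen in the uterus had the largest positive median of the 32 lists described. Of the 20 tested, 16 had a positive log2 fold change, 11 were higher at an unadjusted p under 0.05 and 0 lower, and the median was 1.25, against 0.01 over all 21208 genes; without library 4 the median was 0.77 and 5 were higher at that p. No member of these lists passed edgeR's test. Over all 21208 genes, 11070 had a positive log2 fold change. At an unadjusted p under 0.05, 6.27% of all genes were higher and 4.45% lower, and 4.03% and 3.00% without library 4. Counts of list members in the sham comparison, here and below, stand against these shares. Clca1, a secreted protein that acts in mucus, was at 1.05, 11.3, 38.2 and 137 CPM at 3 months and 0.537 to 3.96 CPM at 1 month (log2 fold change 4.93 ± 1.25, edgeR adjusted p = 0.290; 3.47 without library 4). Its 4 later libraries spread over more than the whole 1-month range, with library 1 inside it. Gjb2, the gap junction protein connexin 26, was at 3.16, 5.88, 9.41 and 242 CPM at 3 months and 2.46 to 4.31 CPM at 1 month. Its log2 fold change of 4.44 ± 1.09 with library 4 was 1.05 without it. Lcn2, the iron-binding secreted protein lipocalin 2, likewise stood at 1.36, 6.24, 10.2 and 133 CPM at 3 months and 1.86 to 5.61 CPM at 1 month. Over the whole list, the median log2 distance of library 4 from the mean of the other 3 later libraries was 1.30, and that of library 1 was −2.25.

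Epithelial genes followed a similar order of libraries. In the luminal epithelium list 15 of 16 genes had a positive log2 fold change, 12 were higher at an unadjusted p under 0.05 and 0 lower (median 0.69), but only 2 were so without library 4 (median 0.31). The list summed to 1030, 1500, 1790 and 2890 CPM at 3 months and to 1380, 998, 1170 and 1160 CPM at 1 month. Library 1 was therefore within the 1-month range and libraries 2 to 4 above it. Krt19, an epithelial keratin, was at 84.8, 122, 158 and 315 CPM at 3 months and 59.6 to 90.1 CPM at 1 month (log2 fold change 1.18 ± 0.31, edgeR adjusted p = 0.295; 0.70 without library 4). The part that this epithelial level had in the estrogen list was not tested.

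Several secretory genes of the glands had lower values at 3 months, and none passed edgeR's test. Prss28 and Prss29, proteases secreted by the glands before implantation, had 3 and 4 counts in all at 3 months, against 1277 and 2366 counts at 1 month. Prss29 was at 0.0182, 0.0630, 0 and 0 CPM at 3 months and at 24.5, 0.789, 16 and 0.843 CPM at 1 month, so that the 1-month libraries themselves fell into a high and a low pair. The edgeR adjusted p was 0.295 for both genes, and 0.569 for both without library 4. Ttr, the thyroid hormone and retinol carrier transthyretin, was at 3.61, 1.53, 1.46 and 0.184 CPM at 3 months and 4.60 to 9.87 CPM at 1 month (log2 fold change −2.10 ± 0.56, edgeR adjusted p = 0.295; −1.72 without library 4), without overlap. Spink1, an inhibitor of trypsin, was at 17.5, 3.47, 3.20 and 0.0184 CPM at 3 months and 118, 8.11, 125 and 31.6 CPM at 1 month. Wnt7b, a Wnt ligand placed on this list, was higher instead, at 1.18, 1.70, 2.84 and 21.0 CPM at 3 months and 0.579 to 1.48 CPM at 1 month. Of 12 gland genes tested, 4 had a positive log2 fold change. At an unadjusted p under 0.05, 2 were higher and 4 lower, against 6.27% and 4.45% of all genes. The list's median was −0.41, and −0.07 without library 4. Without library 4, 6 of the 12 were positive and 6 negative, and again 2 were higher and 4 lower at that p. There voom called 3 higher and 1 lower, against 2.49% and 2.28% of all genes, and DESeq2 0 and 1, against 0.0931% and 0.106%.

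Progesterone targets and signals of implantation showed smaller differences. Of 20 progesterone targets, 6 had a positive log2 fold change, and the median of −0.34 was −0.12 without library 4. At an unadjusted p under 0.05, 1 was higher and 3 lower, against 6.27% and 4.45% of all genes. Fkbp5, a co-chaperone of steroid receptors, was at 59.8, 44.0, 39.4 and 18.8 CPM at 3 months and 58.5 to 81.4 CPM at 1 month (log2 fold change −0.80 ± 0.24, edgeR adjusted p = 0.301; −0.55 without library 4). The groups met only through library 1. Wnt4, a ligand needed for the stromal response, was at 6.10, 4.33, 4.59 and 40.9 CPM at 3 months and 4.88 to 6.91 CPM at 1 month, so its log2 fold change of 1.32 rested on library 4 and was −0.16 without it. Among 24 implantation signals the median was 0.02. In that list Socs3, the feedback inhibitor of cytokine signalling that Lif induces through Stat3, was at 22.5 to 25.2 CPM at 3 months and 39.3 to 47.2 CPM at 1 month, without overlap and with close replicates (log2 fold change −0.84 ± 0.25, edgeR adjusted p = 0.299; −0.81 without library 4). Egr1, an immediate early transcription factor, was at 45.5, 21.4, 23.2 and 11 CPM at 3 months and 79.6, 23.9, 58.6 and 57.7 CPM at 1 month.

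Proliferation genes were higher in library 4 above all. All 24 cell cycle genes and all 24 DNA replication genes had a positive log2 fold change, with medians of 0.58 and 0.44; 16 and 11 of them stood at an unadjusted p under 0.05. Without library 4 the medians were 0.31 and 0.14, and 0 and 3 genes stood at that p. The cell cycle list summed to 1370, 1010, 1060 and 2050 CPM at 3 months and 988, 559, 1260 and 1060 CPM at 1 month. Library 2 at 1 month was thus the lowest of the 8, and libraries 2 and 3 at 3 months lay within the 1-month range. Pcna was at 84.8, 90.6, 98.1 and 130 CPM at 3 months and 61.7 to 79.7 CPM at 1 month (log2 fold change 0.51 ± 0.13, edgeR adjusted p = 0.285; 0.37 without library 4). Tyms, which makes thymidylate for DNA synthesis, was at 38.3, 39.8, 43.8 and 54.8 CPM at 3 months and 28.4 to 36.9 CPM at 1 month, again without overlap. Cholesterol and fatty acid synthesis genes turned with library 4: their median was 0.28 with it and −0.10 without it.

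**Figure D4:**
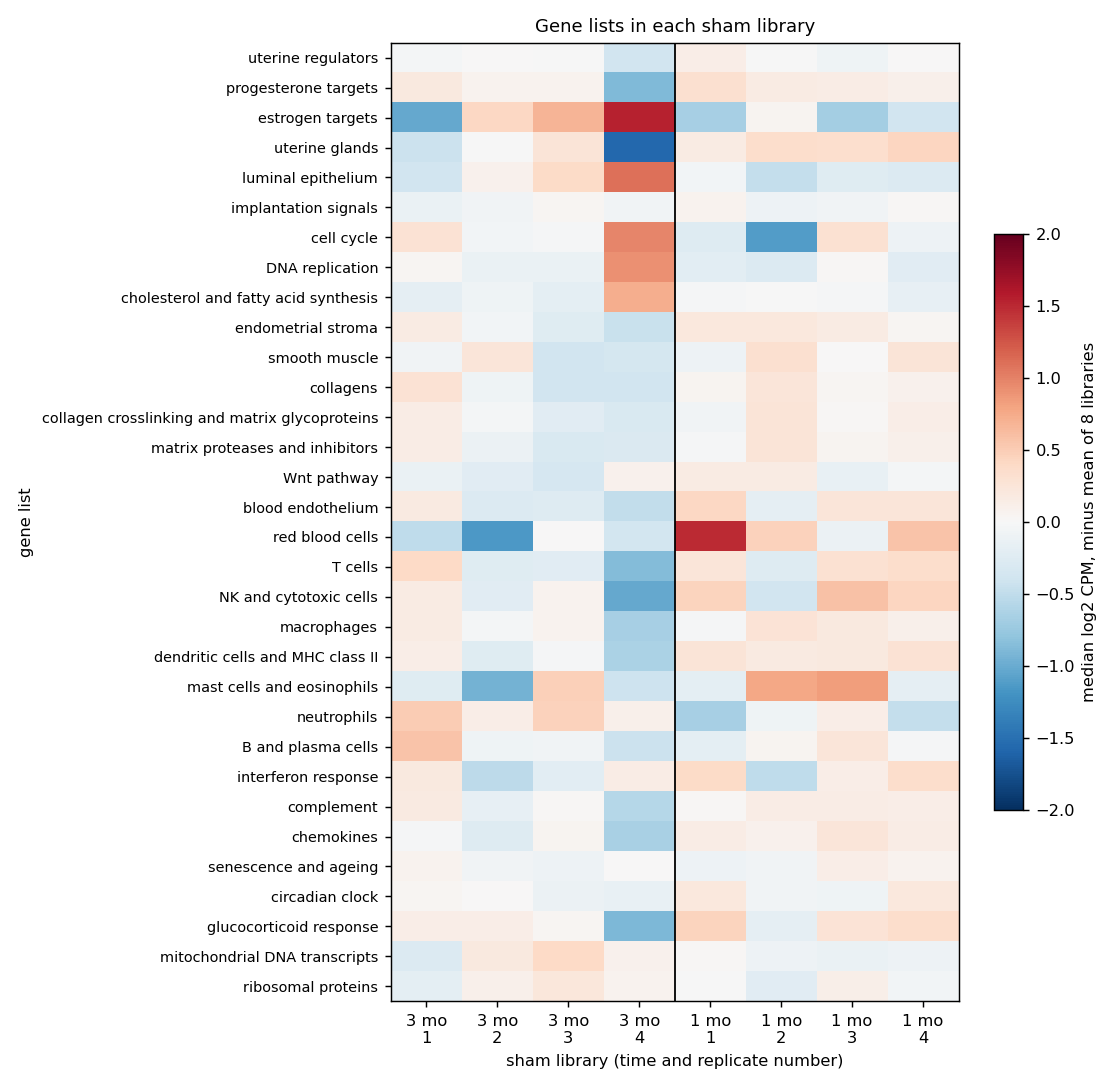
Median over each list of log2 CPM minus the mean of the 8 sham libraries, with 3-month libraries left of the line, 1-month libraries right of it, red above the mean and blue below it. Library 4 at 3 months is the highest of the 8 in the estrogen, luminal epithelium, cell cycle and DNA replication lists and the lowest in the gland and progesterone lists, and library 1 at 3 months is the lowest in the estrogen list.

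Genes of blood vessels and of red blood cells had negative medians with and without library 4. Of 16 blood endothelium genes, 15 had a negative log2 fold change and 9 were lower at an unadjusted p under 0.05 (median −0.40, and −0.34 without library 4; median in eutopic uterus −0.28). The list summed to 1570, 1050, 1060 and 972 CPM at 3 months and 1790, 1190, 1570 and 1610 CPM at 1 month, so library 1 at 3 months lay within the 1-month range. Plvap, which forms the diaphragms of vessel pores, was at 51.0, 50.7, 49.1 and 40.6 CPM at 3 months and 61.2 to 74.5 CPM at 1 month (log2 fold change −0.50 ± 0.15, edgeR adjusted p = 0.299; −0.42 without library 4). Voom called 9 of these 16 genes lower, against 2.64% of all genes, and edgeR without 3-month library 1 called 3, against 0.909%. DESeq2 called 0 of the 16 lower, against 0.345% of all genes, and without library 4 DESeq2 called 0, against 0.106%, and voom 7, against 2.28%. Red blood cell genes were lower by a median of −1.17, and of −1.05 without library 4. Alas2, the haem synthesis enzyme of red cells, was at 2.82, 2.67, 4.43 and 3.31 CPM at 3 months and 13.1, 5.85, 4.44 and 7.02 CPM at 1 month. The whole list summed to 44.6 to 93.3 CPM at 3 months and 83.5 to 237 CPM at 1 month, which overlap; the ribosomal RNA share was likewise higher at 1 month.

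Immune cell lists other than neutrophils had negative medians, which lay nearer 0 without library 4. Of 16 natural killer and cytotoxic cell genes, 15 had a negative log2 fold change, and the median of −0.68 was −0.40 without library 4. At an unadjusted p under 0.05, 2 were lower, against 4.45% of all genes. Prf1, the pore-forming perforin, was at 8.27, 4.10, 6.53 and 4.45 CPM at 3 months and 11.4 to 15.5 CPM at 1 month, without overlap (log2 fold change −1.15 ± 0.33, edgeR adjusted p = 0.295; −1.03 without library 4). The list summed to 109, 88.4, 109 and 45.6 CPM at 3 months and to 104 to 160 CPM at 1 month. Cd8b1, a chain of the CD8 co-receptor of cytotoxic T cells, was at 0.276 to 0.963 CPM at 3 months and 0.921 to 2.24 CPM at 1 month. The T cell list had a median of −0.29, and −0.09 without library 4. Msr1, a macrophage scavenger receptor, was at 2.55 to 3.43 CPM at 3 months and 4.60 to 7.90 CPM at 1 month (log2 fold change −0.97 ± 0.22, edgeR adjusted p = 0.255; −0.89 without library 4), although the macrophage list had a median of −0.21 and of only −0.05 without library 4. Ccl5, a chemokine for T cells, was at 1.22 to 3.05 CPM at 3 months and 3.26 to 5.40 CPM at 1 month. Among 24 interferon response genes 17 had a negative log2 fold change (median −0.26; −0.22 without library 4; median in eutopic uterus −0.25). Neutrophil genes summed to 54.7 to 401 CPM at 3 months and 38.6 to 47.7 CPM at 1 month, but the sum holds Ltf and Lcn2, which are also on the estrogen list, while S100a8, a neutrophil protein on that list alone, was at 0.570 to 1.27 CPM at 3 months and 0.295 to 1.37 CPM at 1 month.

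Matrix, muscle and stromal genes had small negative medians. They were −0.24 for endometrial stroma, −0.23 for smooth muscle, −0.15 for collagens and −0.30 for matrix proteases and their inhibitors, against 0.05, 0.02, 0.14 and 0.03 in eutopic uterus. Without library 4 the sham medians of these lists were −0.13, −0.12, −0.12 and −0.21. Gja1, the gap junction protein connexin 43 of uterine muscle and stroma, was at 136, 110, 108 and 144 CPM at 3 months and 206, 195, 165 and 144 CPM at 1 month (log2 fold change −0.51 ± 0.14, edgeR adjusted p = 0.295; −0.58 without library 4). Library 4 at 3 months reached the rounded value of library 4 at 1 month. Timp1, an inhibitor of matrix metalloproteinases, was at 9.36, 13.8, 12.1 and 7.30 CPM at 3 months and 14.0 to 16.1 CPM at 1 month. In the Wnt list, 5 of 23 genes were higher and 9 lower at an unadjusted p under 0.05, against 6.27% and 4.45% of all genes. Fzd1, a Wnt receptor, was at 110, 77.8, 71.3 and 82.3 CPM at 3 months and 113 to 136 CPM at 1 month. Sfrp2, a secreted Wnt antagonist of the stroma, was at 85.0, 78.9, 70.5 and 37.0 CPM at 3 months and 86.9 to 131 CPM at 1 month. The Wnt list's median was −0.09, and −0.31 without library 4.

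Genes tied to ageing gave no common direction. Among 20 senescence and ageing genes 9 had a positive log2 fold change (median −0.03). At an unadjusted p under 0.05, 2 were higher and 2 lower, against 6.27% and 4.45% of all genes. Cdkn2a, which encodes the cell cycle inhibitor p16, was low but without overlap, at 0.545, 0.882, 0.639 and 0.956 CPM at 3 months and 0.243, 0.202, 0.389 and 0.457 CPM at 1 month (log2 fold change 1.22 ± 0.33, edgeR adjusted p = 0.295; 1.09 without library 4). Cdkn1a, which encodes p21, another cell cycle inhibitor, was at 15.1 to 18.0 CPM at 3 months and 11.3 to 24.5 CPM at 1 month. In the circadian clock list 6 of 20 genes had a positive log2 fold change (median −0.20; −0.11 without library 4).

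The other lists described had medians of −0.75 for mast cells and eosinophils, −0.38 for chemokines, −0.32 for dendritic cells and MHC class II, −0.27 for glucocorticoid response, −0.19 for complement, −0.16 for matrix glycoproteins, −0.09 for B and plasma cells, 0.01 for uterine regulators, 0.11 for ribosomal proteins, 0.28 for mitochondrial transcripts and 0.30 for neutrophils. Without library 4 they were −0.53 for mast cells and eosinophils, −0.30 for chemokines, −0.17 for dendritic cells and MHC class II, −0.09 for glucocorticoid response, −0.11 for complement, −0.10 for matrix glycoproteins, −0.03 for B and plasma cells, −0.08 for uterine regulators, 0.11 for ribosomal proteins, 0.25 for mitochondrial transcripts and 0.42 for neutrophils. Serping1, which restrains the first step of complement, was at 187 to 307 CPM at 3 months and 339 to 361 CPM at 1 month, without overlap (log2 fold change −0.47 ± 0.13, edgeR adjusted p = 0.295; −0.34 without library 4). The lists not described further had medians between −0.75, for adipocyte genes, and 0.55, for genes of the oviduct, of which 6 were tested.

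**Figure D5:**
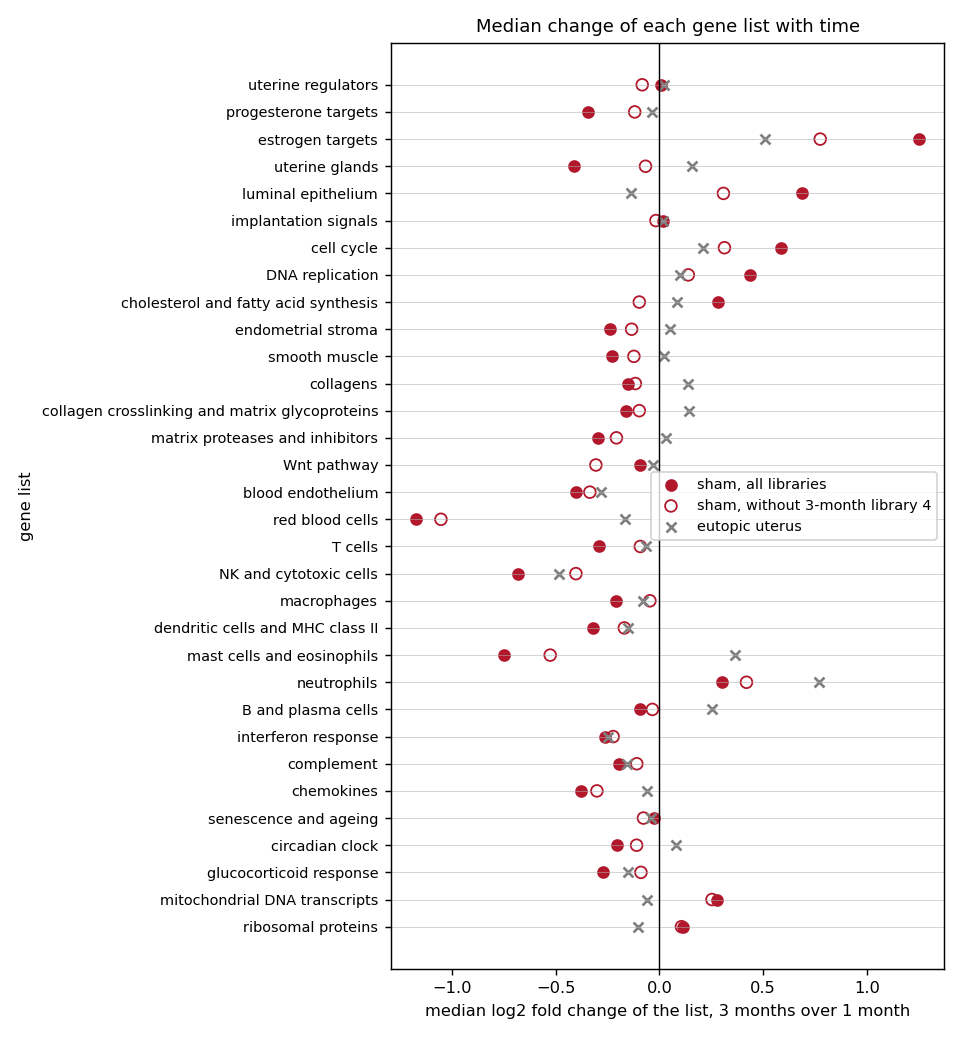
Median log2 fold change, 3 months over 1 month, of each list in sham uterus with all libraries (filled red), in sham uterus without 3-month library 4 (open red) and in eutopic uterus (grey crosses). The estrogen list has medians of 1.25, 0.77 and 0.51, and the blood endothelium list has −0.40, −0.34 and −0.28.

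The change with time in sham uterus was set against that in eutopic uterus by a test of the difference. edgeR called 2 of 21208 genes (0.00943%), with 735 genes (3.47%) at an unadjusted p under 0.05, and in both called genes the group that stood out was eutopic uterus at 1 month. Ifi202b, an interferon-induced gene, was at 0 to 0.0735 CPM at 3 months and 0.0370 to 0.0868 CPM at 1 month in sham uterus. In eutopic uterus it was at 0 to 0.0428 CPM at 3 months and 10.5 to 12.3 CPM at 1 month (log2 difference 7.99, edgeR adjusted p = 0.00142). Without 3-month sham library 4 its difference of 7.46 no longer passed (edgeR adjusted p = 0.0519). Ifi202b was on a list of genes that vary between mouse strains, and the part of the mixed background in its levels was not tested. Gm13736, annotated as a processed pseudogene, followed the same pattern. Its level in sham uterus was 0.262 to 0.462 CPM at 3 months and 0.158 to 0.463 CPM at 1 month. The eutopic values were 0.319 to 0.521 CPM at 3 months and 4.31 to 8.26 CPM at 1 month. Its difference of 4.14 was 4.18 without 3-month sham library 4 and was called in both fits (edgeR adjusted p = 0.00142 with it and 0.00506 without it). A processed pseudogene is a copy of another gene, so the counts of Gm13736 are uncertain. Slc27a2, Nav3 and Egr2 had log2 fold changes of 1.60, −1.16 and −1.06 in sham uterus and of 0.02, −0.01 and 0.09 in eutopic uterus, and their differences of 1.57, −1.15 and −1.15 were not called; without library 4 the differences were 1.67, −0.98 and −1.08. Ltf had a log2 fold change of 3.00 in sham uterus and 1.05 in eutopic uterus (difference 1.95, not called; 1.78 without library 4). Guca1b and Ifi211, whose differences of −6.27 and −1.01 did not pass, had log2 fold changes of 0.42 and −0.43 in sham uterus and of 6.69 and 0.58 in eutopic uterus. In eutopic uterus Guca1b was at 0.558, 0.941, 0 and 1.25 CPM at 3 months and 0 to 0.0177 CPM at 1 month, so its 6.69 is set against values near 0. Rn18s-rs5, which is counted in the ribosomal RNA share above, was also among the 3 genes of smallest p with a lower change in sham uterus. None of these 3 passed. In sham uterus Rn18s-rs5 was at 2940, 4480, 2200 and 2420 CPM at 3 months and 10000, 5350, 4930 and 6720 CPM at 1 month (log2 difference −1.52). Among the lists described, every tested gene had a positive log2 difference in luminal epithelium (16 genes, median 0.69), cell cycle (24 genes, 0.36), DNA replication (24 genes, 0.39) and ribosomal proteins (24 genes, 0.20). Over all 21208 genes, 10856 had a positive difference (median 0.01), and genes of a list are not independent of each other. The median log2 fold changes of these 4 lists in eutopic uterus itself were −0.14, 0.21, 0.10 and −0.10. Without library 4 the genes with a positive difference numbered 16, 19, 15 and 23 of these lists in that order, with medians of 0.35, 0.10, 0.04 and 0.21. On that side 4 luminal epithelium genes and 4 of 12 mitochondrial transcripts stood at an unadjusted p under 0.05, against 2.01% of all genes, and 0 were called. Without library 4 the counts were 1 and 5. In eutopic uterus itself 4 of these 12 were lower at that p, against 1.09% of all genes. In sham uterus 2 were higher, against 6.27%. The difference was negative in 19 of 20 collagens, 22 of 24 matrix glycoproteins and 15 of 16 smooth muscle genes (medians −0.34, −0.29 and −0.24, and −0.26, −0.20 and −0.16 without library 4). Of 15 mast cell and eosinophil genes 5 were lower at that p with and without library 4, against 1.45% of all genes with it.

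Library 4 at 3 months carried genes far outside the range of the other sham libraries; the following were chosen after their values were seen, among genes far from the mean of the other 3, and are not the furthest ones. Gabrp, an epithelial chloride channel subunit, was at 1.09, 9.28, 12.9 and 117 CPM at 3 months and 1.00 to 10.1 CPM at 1 month. Cftr, the chloride channel that estrogen raises in uterine epithelium, was at 2.03, 4.60, 4.62 and 74.2 CPM at 3 months and 1.28 to 3.01 CPM at 1 month. Both place library 4 alone at the top. At the other end, Angptl7, a secreted angiopoietin-like protein, was at 315, 299, 220 and 3.22 CPM at 3 months and 166 to 351 CPM at 1 month. Rims3, better known from synapses, was at 72.6, 91.8, 117 and 1.07 CPM at 3 months and 81.6 to 134 CPM at 1 month. Zbtb16, a progesterone and glucocorticoid target, was at 120, 80.3, 71.1 and 4.23 CPM at 3 months and 81.4 to 138 CPM at 1 month. Of the 8 libraries, library 4 had the highest medians in the estrogen and luminal epithelium lists and the lowest in the progesterone and gland lists. Its median log2 distance from the other 3 later libraries was −0.98 over the progesterone targets and 0.92 over the cell cycle genes.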

How the data were processed

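The authors deposited 1 table of raw counts, whole numbers of reads per gene, for 24 libraries; per the submitters' processing notes it was made with bcl2fastq 1.9.0 and STAR 2.7.9a on mm39, and edgeR was used. Of the annotation, counting mode and strand setting the sources say nothing, which leaves overlapping genes and close copies uncertain. The table has 56691 genes, without positions; 77 symbols on more than 1 line were kept apart by identifier. No batch is given.

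The fit used edgeR 4.0.16 under R 4.3.3, with TMM factors and filterByExpr on the 16 uterine libraries (sham and eutopic), 1 mean for each group, quasi-likelihood F-tests, and Benjamini-Hochberg adjustment over all 21208 genes, with a call at an adjusted p under 0.05. The edgeR, DESeq2 and voom fits were tested on simulated data. Alternatives were DESeq2 1.42.0, its size factors in edgeR, no filter, limma 3.58.1 voom with sample weights, all 24 libraries, only the compared libraries, a replicate block, and each library left out. CPM are TMM-scaled; log2 CPM used a prior count of 2. Values after ± are standard errors of the edgeR fit or SDs between libraries.

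The members and the 53 lists were chosen with earlier results of these data known. Named genes were a panel of 7, the 10 largest changes in each direction among called genes with separate groups and a mean log2 CPM of 0 or more, and 5 in each direction without 3-month library 4, filled by smallest p where too few were called, leaving out predicted genes and pseudogenes. Up to 3 members of each described list and up to 3 genes in each direction of the difference were added. Among genes called in the difference, predicted genes and pseudogenes were not left out. Others were chosen after their values were seen. Of the 53 lists, 32 were described. Results of some genes are not reported here.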

Additional observations from a re-analysis of the deposited data

Results flagged for a closer look

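In 6 of 76 groups of 4 libraries checked, for 34 named genes and 4 library measures at each time, 1 library lay far from the other 3. The limit used gives about 1 in 20 for independent, normally distributed values. Many of these genes were picked by p in these libraries, and all share the same libraries, so that rate cannot be set against the count. H2bc8 was at 2.28 CPM in 3-month library 4 and at 1.52 to 1.58 CPM in the other 3, and Efcab11 was at 2.98 CPM there, above 2.03 to 2.15 CPM elsewhere at 3 months. In 3-month library 1, Vcam1 was at 18.3 CPM, against 10.8 to 11.3 CPM in the other 3, and Egr2 at 3.07 CPM, against 1.77 to 1.93 CPM. Library 3 at 3 months had Hpx at 1.1 CPM, where the others had 0.599 to 0.651 CPM. Coch was at 13.8 CPM in 1-month library 2 and at 32.2 to 34.5 CPM in the other 1-month libraries. By the test of the difference, the change with time differed between sham and eutopic uterus in Ifi202b, by 7.99 on the log2 scale, and in Gm13736, by 4.14 (edgeR adjusted p = 0.00142 for both). Without 3-month sham library 4 the edgeR adjusted p was 0.0519 for Ifi202b and 0.00506 for Gm13736. In both genes eutopic uterus at 1 month was the group that stood out. Ifi202b was on the list of genes that vary between strains, and the part of the mixed background was not tested.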

How the results depend on the processing

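edgeR called 0 genes in the sham comparison with DESeq2 size factors, without a filter, with all 24 libraries and with only the 8 compared libraries. DESeq2 called 156 and voom 1036; leaving out 1 library gave 0 to 430, the 430 without 3-month library 1, and without library 4 DESeq2 called 47 and voom 1029. In eutopic uterus the count of 2 became 14 (DESeq2), 7 (voom) and 6 (only its 8 libraries). In the difference the count of 2 became 6 (DESeq2), 0 (all 24 libraries) and 1 (without 3-month library 4), and leaving out 1 library gave 1 to 3. Same-numbered sham libraries did not deviate together (r of −0.196 to 0.0883 across genes), and pairs of unlike number had r of −0.218 to 0.305. So few correlations cannot exclude pairing by number. With the replicate block, 0 sham genes were called, and 2599 stood at an unadjusted p under 0.05.

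Of 34 named genes, 4 turned direction under an alternative, and the cause was not tested. Leaving out 1 library gave log2 fold changes of −0.12 to 0.47 for Pgr, −0.17 to 0.10 for Esr1, −0.21 to 0.14 for Foxa2 and −0.14 to 0.31 for Gm13736; for Pgr and Esr1 the lowest was without 3-month library 4. Voom gave −0.11, −0.21 and 0.072 for Pgr, Esr1 and Foxa2, and Esr1 was −0.00269 with no filter. Without library 4, DESeq2, voom and the fit of 7 libraries gave −0.13, −0.19 and −0.12 for Pgr, −0.18, −0.24 and −0.17 for Esr1, and 0.13, 0.15 and 0.13 for Foxa2. Among 32 list medians, leaving out 1 library gave −0.096 to 0.047 for implantation signals, −0.097 to 0.39 for cholesterol synthesis, −0.31 to −0.023 for the Wnt list, −1.01 to −0.29 for mast cells and eosinophils and 0.14 to 0.99 for neutrophils. Without library 4, cholesterol synthesis was −0.10 in DESeq2 and −0.098 with 7 libraries. The Wnt list was −0.29 in voom and, without library 4, −0.31 in DESeq2, −0.27 in voom and −0.27 with 7 libraries. Mast cells and eosinophils were −0.13 in voom with library 4 and −0.13 without it.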

Other observations

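A small set of genes was near 0 in 1 or 2 sham libraries and well expressed in the rest. With a limit under 0.1 CPM in at least 1 of the 8 libraries and a median of at least 5 CPM, chosen after the data were seen, 9 genes met it, and 8 of them were under 1 CPM in 3-month library 4. Serpina1e, an alpha-1-antitrypsin gene, was at 0.0184 CPM in 3-month library 4, 0.259 CPM in 1-month library 3 and 32.8 to 59.5 CPM in the other sham libraries, and at 0.0399 CPM in 1 eutopic library. It belongs to a family of close copies, so its counts are uncertain. Zfp979, a zinc finger gene, was at 0 CPM in 3-month library 4, 0.0367 CPM in 1-month library 2 and 9.75 to 17.1 CPM elsewhere in sham uterus. Abcb5, a membrane transporter, was at 3.58, 4.98, 9.61 and 0.0368 CPM at 3 months and 13.2 to 21.4 CPM at 1 month. Actc1, the cardiac actin gene, chosen after its values were seen, was shared the other way, at 10.3 CPM in 3-month library 4 and 9.57 CPM in 1-month library 2 and at 0.328 to 1.11 CPM in the other 6.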
